A study of Mus musculus with 36 samples.

Results

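A set of 10 genes that encode fatty acid elongases and desaturases was followed through liver and eWAT (epididymal white adipose tissue, a visceral fat depot of male mice) of mice on 3 diets. The genes were taken from a list of symbols that was chosen with earlier results of these data known. It holds 5 elongases (Elovl1, Elovl2, Elovl3, Elovl5 and Elovl7), 4 genes of the Fads family (Fads1, Fads2, Fads3 and Fads6) and the stearoyl-CoA desaturase gene Scd2. Of these 10 genes, 9 were among the 14052 genes of the liver count table and 10 among the 16690 genes of the eWAT count table, and 17536 genes were in either table. Elovl7 was not in the liver table and was not analysed there.

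The mice were wild-type C57BL/6 males of the F0 generation, with no transgene or deleted gene named for any group. All groups ate chow to 6 weeks of age and were 24 weeks old at sampling. The HFLF group ate a high-fat diet for 9 weeks and a low-fat diet for the next 9 weeks, the HF group ate the high-fat diet for 18 weeks, and the LF group ate the low-fat diet for 18 weeks. Whole-tissue RNA was sequenced in 6 libraries per diet and tissue, 36 in all, and the HFLF and HF groups were set against the same LF libraries. The labels do not say that each library came from a separate mouse, so the p-values measure the spread between these libraries.

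Very long and polyunsaturated fatty acids are made in the endoplasmic reticulum by alternating elongation and desaturation. Elovl enzymes carry out the first, condensing step of each elongation round with malonyl-CoA as the donor of carbon, while desaturases draw electrons from cytochrome b5. Essential fatty acids from the diet pass through Fads2, Elovl5, Fads1 and Elovl2 on their way to arachidonic, eicosapentaenoic and docosahexaenoic acid, and the liver is a main site of this route. Scd enzymes instead place the first double bond in saturated fatty acids.

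Fads3, Fads2 and Fads1 are neighbours on mouse chromosome 19 (GRCm38). Fads3 lies at chr19:10041569-10060110 on the plus strand, Fads2 at chr19:10062765-10101746 on the minus strand and Fads1 at chr19:10182888-10196877 on the plus strand. The promoter windows of Fads3, Fads2 and Elovl1 are shown because these genes changed in opposite directions in eWAT of high-fat-fed mice. The RefSeq windows (GRCm38.p6) hold 250 bases before to 50 after the start of transcription, 5′ to 3′ on the gene's strand. Capitals mark the CCAAT box (CCAAT) and the GC box (GGGCGG), each searched on both strands.
Fads3, chr19:10041298-10041597, plus strand: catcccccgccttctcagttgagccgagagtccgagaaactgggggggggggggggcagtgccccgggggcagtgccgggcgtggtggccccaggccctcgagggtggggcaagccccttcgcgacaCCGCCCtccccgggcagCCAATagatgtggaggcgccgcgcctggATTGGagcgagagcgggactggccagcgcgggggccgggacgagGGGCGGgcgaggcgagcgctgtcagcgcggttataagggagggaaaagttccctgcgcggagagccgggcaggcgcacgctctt
Fads2, chr19:10101454-10101753, minus strand: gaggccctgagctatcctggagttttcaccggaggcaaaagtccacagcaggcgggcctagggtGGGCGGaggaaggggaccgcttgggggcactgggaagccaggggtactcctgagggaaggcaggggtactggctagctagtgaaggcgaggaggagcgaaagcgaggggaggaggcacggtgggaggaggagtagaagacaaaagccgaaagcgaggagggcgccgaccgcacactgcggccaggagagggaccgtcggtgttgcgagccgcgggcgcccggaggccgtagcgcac
Elovl1, chr4:118427843-118428142, plus strand: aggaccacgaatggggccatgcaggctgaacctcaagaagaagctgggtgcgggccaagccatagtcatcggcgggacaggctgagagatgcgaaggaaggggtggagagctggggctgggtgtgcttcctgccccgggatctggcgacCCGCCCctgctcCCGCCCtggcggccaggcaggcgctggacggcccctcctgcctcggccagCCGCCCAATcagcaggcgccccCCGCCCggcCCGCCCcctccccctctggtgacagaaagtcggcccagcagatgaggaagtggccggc

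The Fads3 window held 2 CCAAT boxes, at -106 on its own strand and at -78 on the other, and 2 GC boxes. The Fads2 window held 1 GC box, at -186, and no CCAAT box. The Elovl1 window shown held 5 GC boxes on the other strand and 1 CCAAT box at -35, which shared bases with the GC box at -39. A second Elovl1 window (chr4:118429451-118429750) held 2 GC boxes on its own strand, at -48 and -37, and no CCAAT box. RefSeq windows were matched for 7 of the 10 genes, 9 windows in all, and not for Fads1, Scd2 or Elovl3. A CCAAT box stood in 3 of these 9 windows and in 37.4% of 32851 windows over all genes, and a GC box in 7 of 9 and in 35.7% of all. The E-box CACGTG stood in 1 of 9, at -161 of Elovl5, and in 7.15% of all. The sterol regulatory element TCACNCCAC was in none of the 9 and in 1.24% of all, and the TATA box TATAAA was in none of the 9 and in 13.6% of all. These matches describe letters in a window and not sites in use.

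Depth ran between 11662551 and 23295485 counts per liver library and between 8941798 and 31186477 counts per eWAT library. Levels are given as CPM, a gene's count scaled to the library's total in the table. Fold changes come from edgeR's quasi-likelihood test with TMM scaling, fitted on every gene of a table, and a gene passed at a Benjamini-Hochberg adjusted p under 0.05 over all of them. The labelled tissues held their markers. Liver libraries held 83109 to 115339 CPM of 8 hepatocyte markers, against 18.9 to 1228 CPM in eWAT, and eWAT libraries held 13593 to 36368 CPM of 8 adipocyte markers, of which Adipoq, Plin1, Lep and Retn were not in the liver table. Some libraries stood apart from others of their group. Liver LF libraries 1 to 4 held 25573 to 39477 CPM of 11 acute-phase genes, against 9828 to 14764 CPM in the other 14. Liver HF library 1 had the highest sums of the 18 livers for adipocyte markers (366 CPM) and fibroblast and progenitor markers (516 CPM). It also had the highest HF level of Elovl1, Elovl2, Elovl5, Fads1, Fads2, Fads3 and Scd2, but not of Elovl3 or Fads6. Of 10 epididymis markers, Crisp1 and Spink2 were in the eWAT table, and their sum was 2.15 to 215 CPM in 6 libraries (HFLF 4 and 6, HF 1, LF 3, 4 and 5), against 0.224 to 1.09 CPM in the other 12.

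The tissues used different members of the set. Per kilobase of exon, Fads2 had the highest mean in liver and Fads3 the highest mean in eWAT under each of the 3 diets. In LF livers the means in CPM per kilobase were 288 ± 50.6 for Fads2, 188 ± 40.4 for Elovl2, 171 ± 64.6 for Elovl5, 163 ± 84.4 for Elovl3 and 159 ± 23.1 for Fads1 (SD, n = 6). They were 21.8 ± 3.74 for Fads6, 16.3 ± 1.88 for Elovl1, 5.87 ± 2.84 for Fads3 and 0.682 ± 0.124 for Scd2. Neighbours in this order overlapped in range among the first 5 genes and between Fads6 and Elovl1. Fads6 lay wholly below Fads1, Fads3 below Elovl1, and Scd2 below Fads3.

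In LF eWAT the means in CPM per kilobase were 143 ± 49 for Fads3, 104 ± 37.8 for Scd2, 34.7 ± 7.88 for Elovl5, 34 ± 8.55 for Fads1, 26.5 ± 25.8 for Fads2 and 21.2 ± 1.38 for Elovl1 (SD, n = 6). Elovl2, Elovl7, Fads6 and Elovl3 had means between 0.654 and 1.1. Ranges overlapped between neighbours down to Elovl1, except between Scd2, at 58.3 or more, and Elovl5, at 47.6 or less. The 4 scarce genes overlapped each other and lay below the rest. In HF eWAT, Elovl1 (32.1 ± 7.51) lay wholly above Fads1 (13 ± 3.47), while in LF eWAT Elovl1 lay wholly below Fads1. Elovl2, which extends polyunsaturated chains, had diet means of 163 to 238 in liver and 0.377 to 1.1 in eWAT. For Scd2 the diet means were 0.682 to 1.02 in liver and 104 to 125 in eWAT.

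**Figure D1:**
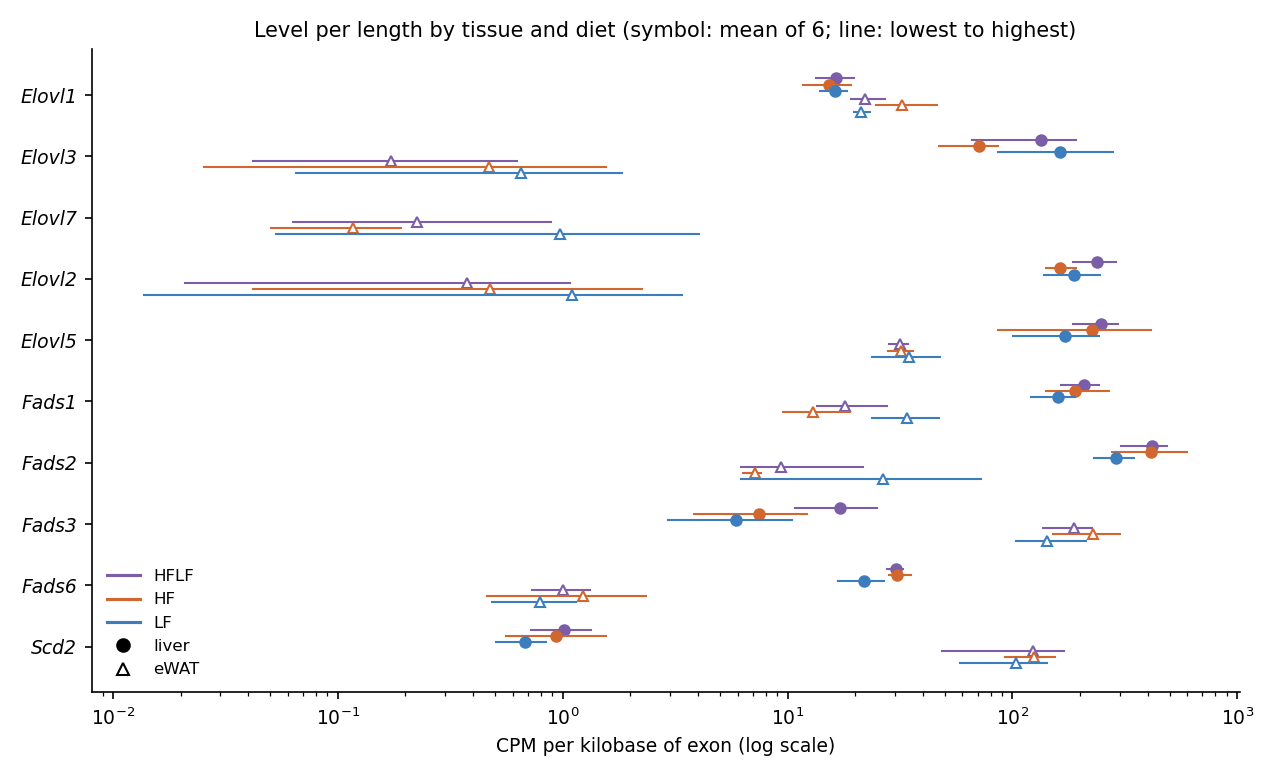
Level of each gene in CPM per kilobase of exon on a log axis, with the mean of 6 libraries as a symbol (filled circle for liver, open triangle for eWAT) and a line between the lowest and the highest library, coloured by diet. Elovl2, Elovl3, Fads2 and Fads6 lie far higher in liver, and Fads3 and Scd2 far higher in eWAT, under each diet.

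In liver, HFLF against LF raised 2 of the 9 measured members (Fads6 and Fads3), where 22.6% of all 14052 genes passed (10.2% higher, 12.4% lower). HF against LF changed 3 of 9, raising Fads6 and Fads2 and lowering Elovl3, where 34.8% of all genes passed (16.3% higher, 18.5% lower), and HFLF against HF raised 2 of 9 (Elovl2 and Fads3), where 5.23% passed (2.18% higher, 3.05% lower). The median log2 fold change over the 9 members was 0.36 in HFLF against LF, 0.24 in HF against LF and 0.12 in HFLF against HF, and the median over all genes lay between -0.0023 and 0.00061. Without liver LF libraries 1 to 4, 0 members passed in HFLF against LF and 0 in HF against LF, with 2 LF libraries left, and 26 and 297 of all genes passed there. These comparisons share libraries. In whole tissue, fewer cells of a type and less RNA per cell cannot be told apart.

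Among the elongases of saturated and monounsaturated fatty acids, Elovl3 fell in HF livers. It is best known from skin and from brown fat, where cold induces it. It had 93.4, 118, 135, 164, 169.7 and 159.9 CPM in HF livers, against 554, 513, 211, 253, 229 and 170.0 CPM in LF livers. The groups did not overlap, although HF library 5 came within 1 CPM of LF library 6, and LF libraries 1 and 2 stood far above the other 4. The log2 fold change was -1.31 (SE 0.31, edgeR adjusted p = 0.00481), and -0.56 (adjusted p = 0.356) without LF libraries 1 to 4. HFLF livers ran between 130.4 and 377 CPM with a median of 258 CPM and overlapped both other diets. HFLF against LF gave -0.41 (SE 0.31, adjusted p = 0.357), and HFLF against HF gave 0.90 (SE 0.31, adjusted p = 0.0961). The second of these passed with DESeq2 (adjusted p = 0.032), limma voom (0.0432), the fit of only 2 diets (0.0387) and without LF libraries 1 to 4 (0.0317).

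Gene lists for the male-biased liver programme and the circadian clock were read beside Elovl3. Of 12 male-biased genes, 4 fell and 0 rose in HF against LF livers, where 34.8% of all genes passed (16.3% higher, 18.5% lower). Their summed levels were 2579.8 to 12362 CPM in HF livers and 7140.3 to 17447 CPM in LF livers. Of 14 clock genes, 5 rose and 2 fell, and their sum was 910.0 to 1097 CPM in HF livers and 478 to 1057 CPM in LF livers. In LF libraries 1 to 4 the clock sum was 478 to 666 CPM, against 673 to 1097 CPM in the other 14 livers. Without LF libraries 1 to 4, none of either list passed. The part of these programmes in the Elovl3 result was not tested.

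Elovl1, which extends saturated and monounsaturated chains to very long lengths for sphingolipids, ran between 31.8 and 53.9 CPM over the 18 liver libraries and passed in no liver comparison. Its log2 fold change was -0.11 in HFLF against LF, -0.21 in HF against LF and 0.099 in HFLF against HF (SE 0.11 each). Without LF libraries 1 to 4 the first 2 of these turned to 0.15 and 0.047.

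Of the polyunsaturated elongases, Elovl5 acts early in the route and Elovl2 late. Elovl2 had 912, 735, 960.4, 1150.0, 1078 and 829 CPM in HFLF livers, against 759.7, 562, 650.2, 573, 588 and 749.8 CPM in HF livers. The groups overlapped through HFLF library 2 alone, which lay below HF libraries 1 and 6. Elovl2 rose in HFLF against HF by 0.53 on the log2 scale (SE 0.14, adjusted p = 0.0343). Leaving out HF library 2, 3 or 4 or HFLF library 1, 3, 4, 5 or 6 moved the adjusted p to between 0.0522 and 0.0868. A fit with replicate number as a block lost this call too. LF livers held 550.1 to 973 CPM and overlapped both groups, and neither comparison with LF passed (0.22 in HFLF and -0.31 in HF, SE 0.14 each). Elovl5 varied widely within diets, with 656 to 1036 CPM (median 848) in HFLF livers, 303 to 1461 CPM (median 759.5) in HF livers and 355 to 857 CPM (median 581) in LF livers. Its log2 fold changes of 0.42 in HFLF against LF and 0.30 in HF against LF (SE 0.29 each) did not pass.

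Fads2, which opens the route to polyunsaturated fatty acids, rose in HF livers by a small step. It had 1977, 1200.0, 1550.3, 1189, 917 and 1329 CPM in HF livers, against 790.3, 1007, 1124, 763, 1147 and 872 CPM in LF livers. HF library 5 lay among the LF libraries and the other 5 HF libraries above all of them. The log2 fold change was 0.41 (SE 0.16, adjusted p = 0.0476). The call was lost with limma voom (adjusted p = 0.0584), in the fit of only these 2 diets (0.075), without LF libraries 1 to 4 (0.375) and with replicate number as a block. It was also lost on leaving out any single liver library other than LF 3, LF 5, HF 4, HF 5 or HFLF 2. HFLF livers had 1004 to 1604 CPM (median 1405), and HFLF against LF gave 0.42 (SE 0.16, adjusted p = 0.0624). This passed with DESeq2 (0.0395), limma voom (0.0436), upper-quartile factors (0.0428) and the fit of 2 diets (0.045).

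Fads1, which makes arachidonic and eicosapentaenoic acid from their precursors, had 794 to 1171 CPM (median 994) in HFLF livers, 679 to 1288 CPM (median 865) in HF livers and 583 to 913 CPM (median 779) in LF livers. The groups overlapped and no liver comparison passed, with log2 fold changes of 0.27 in HFLF against LF and 0.15 in HF against LF (SE 0.14 each). Fads1 and Fads2 had a Pearson correlation of 0.85 in log2(CPM + 0.5) over the 18 liver libraries, which share diets and depth.

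Fads3, whose product acts on sphingoid bases, had the largest fitted rise of the 9 members in HFLF against LF livers. It had 94.6, 41.1, 89.6, 60.8, 55.5 and 47.4 CPM in HFLF livers, 46.4, 14.5, 34.1, 25.9, 14.8 and 33.5 CPM in HF livers, and 11.2, 19.6, 28.9, 21.5, 39.9 and 12.5 CPM in LF livers. All HFLF libraries lay above all LF libraries, and HF library 1 alone reached into the HFLF range. Fads3 rose by 1.43 in HFLF against LF (SE 0.34, adjusted p = 0.00781) and by 1.18 in HFLF against HF (SE 0.33, adjusted p = 0.0499). Without LF libraries 1 to 4 the first was 1.24 (adjusted p = 0.286). The second was lost with upper-quartile factors (adjusted p = 0.0543) and with replicate number as a block. It was also lost on leaving out any single library other than LF 1, LF 5, LF 6, HF 1 or HFLF 2 (adjusted p up to 0.107). HF against LF did not pass (0.24, SE 0.33, adjusted p = 0.596).

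Fads6, for whose product no role is given here, rose in both groups that had eaten the high-fat diet. It had 217, 203, 195, 184, 197 and 218 CPM in HFLF livers, 199.6, 188, 200.4, 188, 235 and 217 CPM in HF livers, and 112, 127, 164, 137, 152 and 179 CPM in LF livers. All HFLF and HF libraries lay above all LF libraries. The rise was 0.36 in HFLF against LF (SE 0.094, adjusted p = 0.0115) and 0.40 in HF against LF (SE 0.094, adjusted p = 0.00418). HFLF against HF gave -0.032 (SE 0.094, adjusted p = 0.882). Without LF libraries 1 to 4 the rises were 0.22 (adjusted p = 0.355) and 0.25 (adjusted p = 0.204). LF libraries 1 to 4 stood apart in other lists besides the acute-phase genes and the clock genes. Eicosanoid enzyme genes summed to 573 to 632 CPM there, against 706 to 1098 CPM in the other 14 livers. Genes that activate and esterify long fatty acids summed to 1196 to 1718 CPM, against 1800 to 3227 CPM. The part of any of these transcripts in the liver changes was not tested.

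Scd2, the desaturase isoform better known from brain and from early life, was scarce in liver, at 2.75 to 8.51 CPM over the 18 libraries (59 to 172 counts). It passed in no liver comparison, with log2 fold changes of 0.46 (SE 0.21, adjusted p = 0.119) in HFLF against LF and 0.34 (SE 0.21, adjusted p = 0.218) in HF against LF. With replicate number as a block, HFLF against LF passed (edgeR adjusted p = 0.0198).

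**Figure D2:**
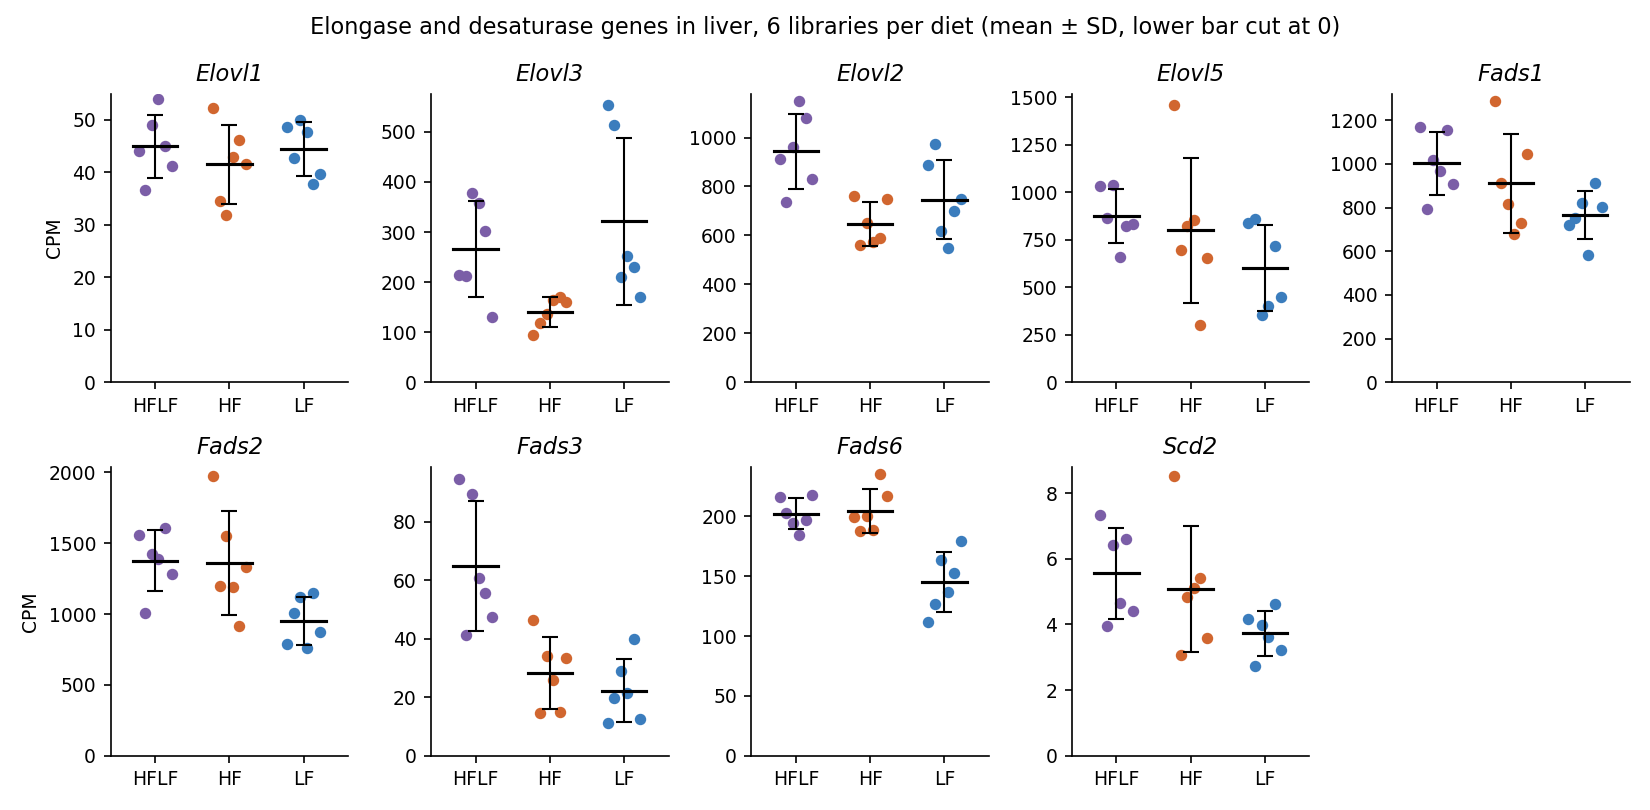
CPM of the 9 members measured in liver, 1 point per library, with HFLF at the left, HF in the middle and LF at the right of each panel, and bars for mean ± SD (lower bars stop at 0). Fads6 separates LF from both other diets, Fads3 separates HFLF from LF, and LF libraries 1 and 2 stand above all others for Elovl3.

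In eWAT, HFLF against LF changed 1 of the 10 members (Fads1, lower), where 0.563% of all 16690 genes passed (0.342% higher, 0.222% lower). HF against LF changed 5 of 10, raising Elovl1 and Fads3 and lowering Fads1, Fads2 and Elovl7, where 40.8% of all genes passed (20.6% higher, 20.2% lower), and HFLF against HF changed 1 of 10 (Elovl1, lower), where 25.4% passed (10.7% higher, 14.7% lower). The median log2 fold change over the 10 members was -0.53 in HFLF against LF, -0.29 in HF against LF and -0.13 in HFLF against HF, and over all genes it was -0.021, -0.023 and -0.0012. Without the 6 eWAT libraries apart, 0, 1 and 0 members passed, and 6, 5203 and 1390 of all genes. Single libraries moved the count of all genes in HFLF against LF eWAT, which was 94. It was 0 without LF library 1, 2 or 4, 4 without LF library 3, 1 without HFLF library 1, 2, 3, 5 or 6, 341 without LF library 5 and 173 without HFLF library 4, and 37, 56 and 38 without HF libraries 1, 4 and 6.

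Markers of other cell types differed between these diets as well. Over all genes 20.6% rose and 20.2% fell in HF against LF eWAT, and 14.7% fell in HFLF against HF eWAT. Macrophage markers summed to 792 to 2218 CPM in HFLF eWAT, 1035 to 6023 CPM in HF eWAT and 479.9 to 821 CPM in LF eWAT, and 6 of 7 rose in HF against LF. In HFLF against HF 6 of 7 fell with a median log2 fold change of -2.15, and without the 6 libraries apart 0 passed with a median of -1.81. Fibroblast and progenitor markers summed to 3303 to 11934 CPM in HF eWAT and 2242 to 3156 CPM in LF eWAT, and 3 of 7 rose. Of 8 adipocyte markers 5 fell and Lep rose, and without the 6 libraries apart 3 fell (Lipe, Plin1 and Pnpla2), with sums over all libraries of 13593 to 33482 CPM in HF eWAT and 24761 to 36368 CPM in LF eWAT. The part of these cell types in the changes of the members was not tested.

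Fads1 fell in HF eWAT and kept its call under every alternative tried. It had 59.5, 58.5, 91.6, 70.1, 48.6 and 46.2 CPM in HF eWAT, against 145, 155, 198, 227, 142 and 115 CPM in LF eWAT. All HF libraries lay below all LF libraries. The log2 fold change was -1.41 (SE 0.18, adjusted p = 4.77e-05), and -1.24 (adjusted p = 0.00215) without the 6 libraries apart. HFLF eWAT had 81.4, 79.5, 65.3, 134, 85.8 and 74.2 CPM, and library 4 alone reached the LF range. Fads1 fell in HFLF against LF (-0.93, SE 0.18, adjusted p = 0.0365). That call was lost without the 6 libraries apart (-0.90, adjusted p = 0.121) and on leaving out LF library 1, 2, 3 or 4 or HFLF library 1, 2, 3, 5 or 6 (adjusted p up to 0.0963). HFLF against HF gave 0.49 (SE 0.18, adjusted p = 0.0523). It passed with upper-quartile factors (0.0297), DESeq2 (0.04), limma voom (0.0104) and replicate number as a block.

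Fads2 also fell in HF eWAT, and a few LF libraries set the size of the fall. It had 25, 24, 24.1, 21, 22 and 24.9 CPM in HF eWAT, against 28.1, 22.5, 99, 239, 115 and 20.4 CPM in LF eWAT. LF libraries 3, 4 and 5 lay far above every HF library, LF library 1 lay just above them, and LF libraries 2 and 6 lay within or just below the HF range. The log2 fold change was -1.84 (SE 0.49, adjusted p = 0.00701), -0.13 (adjusted p = 0.407) without the 6 libraries apart and -0.87 (adjusted p = 0.132) with limma voom and quality weights. HFLF eWAT had 22.7, 23.4, 23.5, 71.3, 24.5 and 20.4 CPM, with library 4 alone above the HF range. HFLF against LF did not pass (-1.44, SE 0.49, adjusted p = 0.145; DESeq2 adjusted p = 0.0453). LF libraries 3, 4 and 5 and HFLF library 4 are among the 6 with raised Crisp1 and Spink2, and they had the highest hepatocyte marker sums of the 18, at 277 CPM in HFLF library 4 and 577, 336 and 1228 CPM in LF libraries 3, 4 and 5. HF library 1 and HFLF library 6 are also among the 6 (Crisp1 and Spink2 sums of 19.9 and 6.60 CPM). They had 25 and 20.4 CPM of Fads2 and hepatocyte marker sums of 28.8 and 28.9 CPM. LF library 3 had the highest Crisp1 and Spink2 sum (215 CPM) with 99 CPM of Fads2, while LF library 4 had 8.33 and 239 CPM. The part of other tissue in the Fads2 result was not tested.

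Fads3, the most abundant member per length in eWAT, rose in HF eWAT. It had 703, 1006, 574, 700.4, 1138 and 1070.4 CPM in HF eWAT, against 442, 417, 393, 442, 809 and 751 CPM in LF eWAT. LF libraries 5 and 6 lay among the HF libraries and the other 4 below all of them. The log2 fold change was 0.65 (SE 0.23, adjusted p = 0.0309). The call was lost in the fit of only the 2 diets (adjusted p = 0.0531), without the 6 libraries apart (0.65, adjusted p = 0.0851) and on leaving out HF library 2, 5 or 6 or LF library 2, 3 or 4 (0.0525 to 0.0682). HFLF eWAT had 518 to 860.1 CPM (median 713) and passed against neither diet. Fads3 and Fads1 had a Pearson correlation of -0.85 in log2(CPM + 0.5) over the 18 eWAT libraries, diets included. Fads6 was low and passed in no eWAT comparison, with 4.84 to 8.81 CPM (median 6.36) in HFLF, 3.07 to 15.7 CPM (median 6.54) in HF and 3.21 to 7.64 CPM (median 4.91) in LF eWAT.

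Elovl1 rose in HF eWAT and not in HFLF eWAT. It had 59.2, 74.2, 63.2, 58.9, 54.9 and 52.4 CPM in HFLF eWAT, 84.3, 86, 126, 89.9, 67.4 and 72.5 CPM in HF eWAT, and 58.6, 63.7, 57.8, 53.7, 59.2 and 53.7 CPM in LF eWAT. All HF libraries lay above all LF libraries, and HFLF library 2 alone reached the HF range. The log2 fold change was -0.51 in HFLF against HF (SE 0.13, adjusted p = 0.00762), 0.56 in HF against LF (SE 0.13, adjusted p = 0.00214) and 0.046 in HFLF against LF (SE 0.13, adjusted p = 0.875). Both calls held when each library was left out in turn. Without the 6 libraries apart they were -0.46 (adjusted p = 0.0796) and 0.49 (adjusted p = 0.0509). Elovl1 shares 53 exon bases with Cdc20 on the opposite strand, and whether the reads were counted by strand is unknown here.

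Elovl7, an elongase of saturated fatty acids, had few counts in most eWAT libraries. It had 0.765, 0.433, 0.67, 0.541, 0.202 and 0.217 CPM in HF eWAT (4 to 15 counts per library), against 0.272, 0.213, 0.656, 16.1, 5.86 and 0.353 CPM in LF eWAT. LF libraries 4 and 5 alone stood above the HF libraries. The fitted log2 fold change was -2.94 (SE 1.00, adjusted p = 0.0267). It was -1.65 (adjusted p = 0.142) without LF library 4, -2.80 (adjusted p = 0.051) without HF library 6, -0.65 (adjusted p = 0.552) with limma voom, and turned to 0.41 (adjusted p = 0.508) without the 6 libraries apart. Elovl2, so abundant in liver, had 0.336, 0.0832, 0.152, 3.21, 0.906 and 4.27 CPM in HFLF eWAT, 8.98, 0.247, 0.894, 0.167, 0.252 and 0.813 CPM in HF eWAT, and 0.0544, 0.996, 3.65, 13.5, 7.5 and 0.417 CPM in LF eWAT. It lay at 3.21 to 13.5 CPM in the 6 libraries apart and at 0.0544 to 0.996 CPM in the other 12, and Elovl3 ran between 0.0504 and 3.61 CPM over all 18. Neither passed in eWAT, though Elovl2 in HF against LF gave -3.10 (adjusted p = 0.0424) without HF library 1. Elovl7 and Fads2 had a Pearson correlation of 0.90 over the 18 eWAT libraries, which include the same few high ones.

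Elovl5 and Scd2 passed in no eWAT comparison. Elovl5 had 99.9 to 121 CPM (median 114) in HFLF eWAT, 99 to 128 CPM (median 109) in HF eWAT and 83.4 to 168 CPM (median 121) in LF eWAT. Its log2 fold change was -0.13 in HFLF against LF, -0.13 in HF against LF and 0.0063 in HFLF against HF, with an SE of 0.11 each. Scd2 had 265 to 926 CPM (median 679.7) in HFLF eWAT, 507 to 845 CPM (median 695) in HF eWAT and 319 to 777 CPM (median 600.4) in LF eWAT. Its log2 fold change was 0.24 in HFLF against LF and 0.23 in HF against LF (SE 0.30 each).

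**Figure D3:**
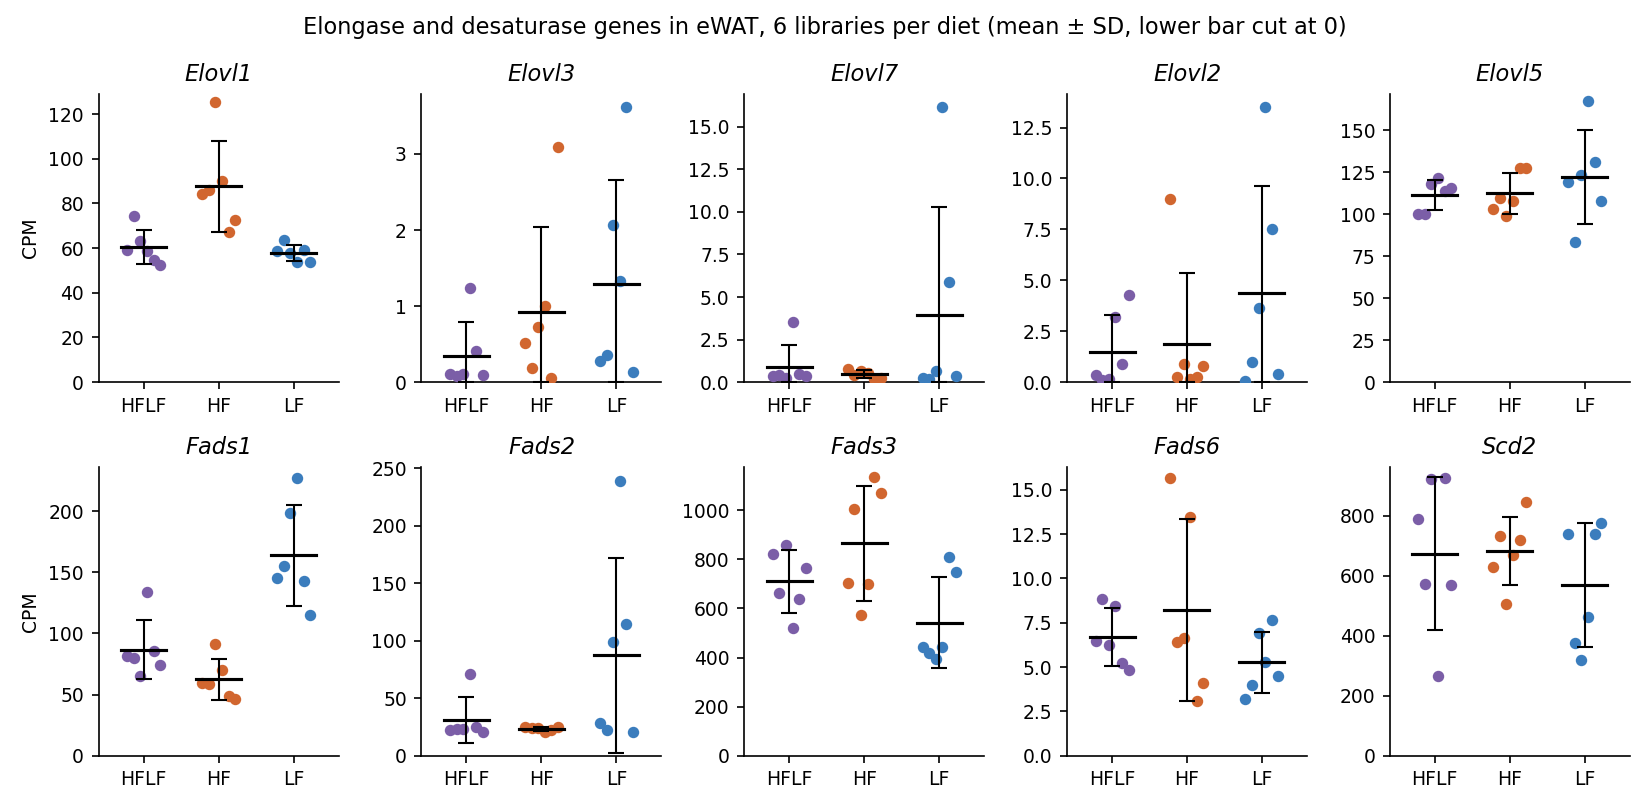
CPM of the 10 members in eWAT, 1 point per library, with HFLF at the left, HF in the middle and LF at the right of each panel, and bars for mean ± SD (lower bars stop at 0). Fads1 and Elovl1 separate HF from LF, whereas Elovl2 and Elovl7 are low in most libraries and high in a few.

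The diet changes were compared between tissues by fitting all 36 libraries together over the 13206 genes that the tables share, as the liver change minus the eWAT change. The fit took the 36 libraries as independent, while the labels do not say whether same-numbered liver and eWAT libraries share a mouse. For HF against LF this differed for 3 of the 9 members, where 45.6% of all genes passed (24.6% with a positive and 21% with a negative difference). Fads1 changed by 0.15 in liver and -1.41 in eWAT in the fits of each tissue, and the difference was 1.62 (SE 0.24, adjusted p = 7.06e-06), which kept its call under every alternative tried. Fads2 changed by 0.41 in liver and -1.84 in eWAT, with a difference of 2.33 (SE 0.53, adjusted p = 0.000748) that was 0.54 (adjusted p = 0.0717) without the 6 eWAT libraries apart. Elovl1 changed by -0.21 in liver and 0.56 in eWAT, with a difference of -0.71 (SE 0.17, adjusted p = 0.000877) that was -0.48 (adjusted p = 0.0769) without liver LF libraries 1 to 4. With upper-quartile factors the median difference over all genes was 0.12, against 0.04 with TMM, and these 3 calls held.

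For HFLF against LF the tissues differed for 2 of 9 members, where 8.56% of all genes passed (4.96% positive, 3.6% negative). Fads1 had a difference of 1.24 (SE 0.24, adjusted p = 0.00369), and 1.10 (adjusted p = 0.214) without liver LF libraries 1 to 4. Fads2 had 1.91 (SE 0.53, adjusted p = 0.023), 1.85 (adjusted p = 0.362) without liver LF libraries 1 to 4, 0.50 (adjusted p = 0.249) without the 6 eWAT libraries and 1.36 (adjusted p = 0.0669) without eWAT LF library 4. Voom with the same-numbered liver and eWAT library of a diet as a block lost the Fads2 call as well. For HFLF against HF the tissues differed for 2 of 9 members, where 18% of all genes passed (9.18% positive, 8.78% negative). Elovl1 had a difference of 0.60 (SE 0.17, adjusted p = 0.0132). Fads3 had 1.43 (SE 0.41, adjusted p = 0.0157), with changes of 1.18 in liver and -0.26 in eWAT. Both of these calls held under every alternative tried.

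**Figure D4:**
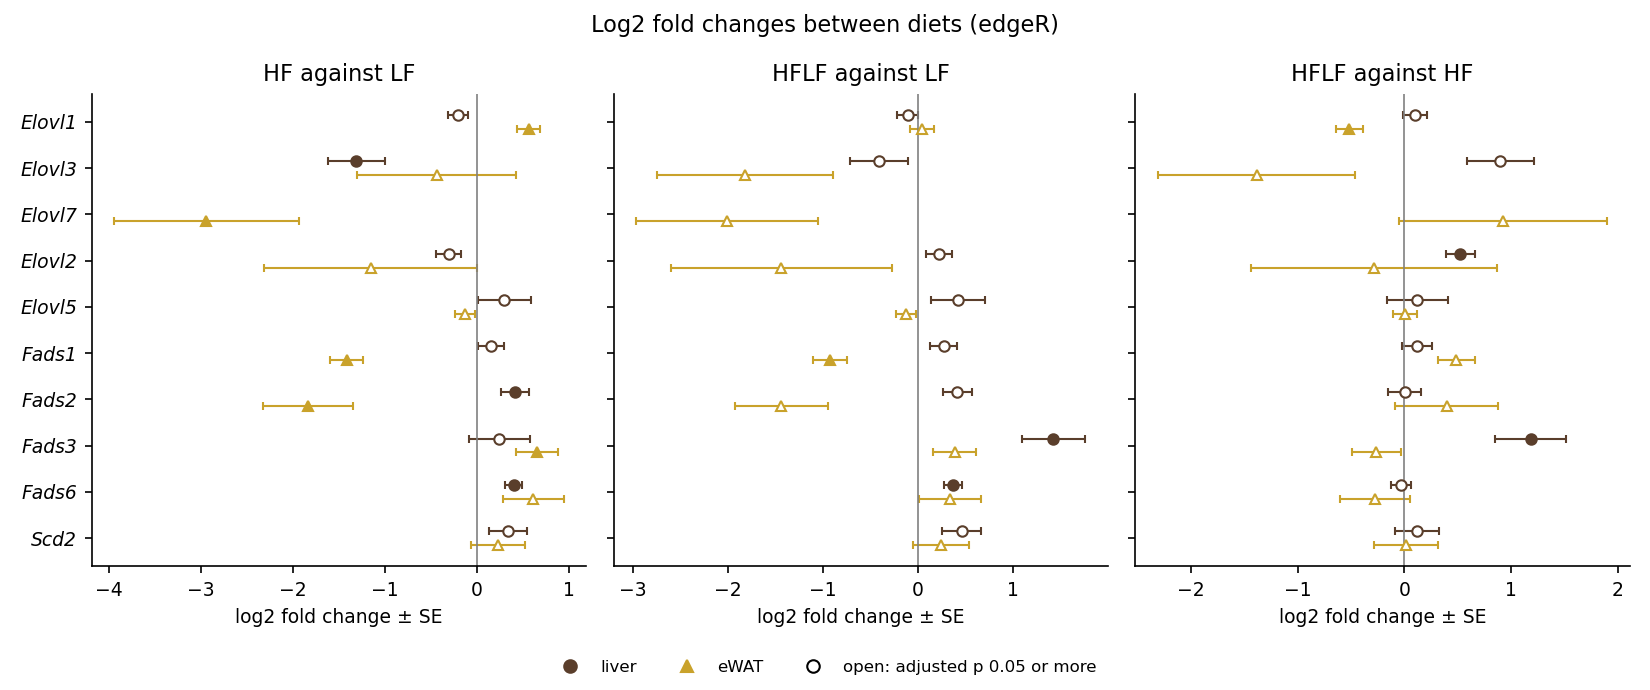
Log2 fold change ± SE from edgeR for each gene in 3 comparisons of diets, with circles for liver and triangles for eWAT, filled where the adjusted p was under 0.05 and open otherwise. Fads1 and Fads2 lie below 0 in eWAT and above 0 in liver for HF against LF, and Elovl2, Elovl3 and Elovl7 have wide errors in eWAT.

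Paired genes were also compared within each library, since such a ratio needs no scaling between libraries. Scd2 was set against Scd1, the main isoform of adult liver and fat. Scd1 fell in HF against LF livers (-1.10, SE 0.37, adjusted p = 0.0294), with -0.72 (adjusted p = 0.473) without LF libraries 1 to 4. HF library 1 did not share this fall. The sum of Scd1, Elovl6 and Degs1, with Scd1 the most abundant, was 17810 CPM there and 2682 to 6230 CPM in the other HF livers. In LF livers that sum was 7737 to 17895 CPM. HF library 1 also had the highest Scd2 of the 18 livers (8.51 CPM). Scd1 fell in HF against LF eWAT too (-0.96, SE 0.29, adjusted p = 0.0138). In liver the lowest, median and highest log2 ratios of Scd2 to Scd1 were -12.17, -11.52 and -11.13 in HFLF, -11.01, -10.01 and -8.88 in HF and -12.65, -11.38 and -11.19 in LF. In eWAT they were -7.10, -5.73 and -5.32 in HFLF, -5.07, -4.51 and -3.68 in HF and -6.59, -5.69 and -5.39 in LF. In both tissues all HF libraries lay above all HFLF and LF libraries.

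The mean log2 ratio of Scd2 to Scd1 differed by -1.57 between HFLF and HF livers, 1.61 between HF and LF livers, -1.44 between HFLF and HF eWAT and 1.38 between HF and LF eWAT. Each had an exact two-sided permutation p of 0.00216 (n = 6 each), the smallest that this design can give, and an adjusted p of 0.00649 over the 12 ratio tests. HFLF against LF gave 0.04 in liver and -0.06 in eWAT, each with an adjusted exact permutation p of 0.892. Without the libraries apart, HF against LF gave 1.25 in liver (adjusted exact permutation p = 0.143, with 2 LF libraries left) and 1.40 in eWAT (0.104). Both p-values are the smallest that the libraries left allow, so these 2 tests could not pass. Per length, Scd2 made up 1.56% of the sum of both isoforms in HFLF eWAT, 4.06% in HF eWAT and 1.59% in LF eWAT. In liver this share was 0.0294% in HFLF, 0.0946% in HF and 0.0292% in LF (means of 6 libraries).

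The log2 ratio of Fads1 to Fads2 passed in none of its 6 tests. In eWAT its lowest, median and highest values were 0.91, 1.79 and 1.86 in HFLF, 0.89, 1.27 and 1.92 in HF and -0.075, 1.69 and 2.78 in LF. LF libraries 3, 4 and 5 lay at 1.00 or below and the other 3 LF libraries at 2.37 or above, with no library between. In liver the means were -0.45 ± 0.066 in HFLF, -0.57 ± 0.25 in HF and -0.31 ± 0.14 in LF (SD, n = 6).

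**Figure D5:**
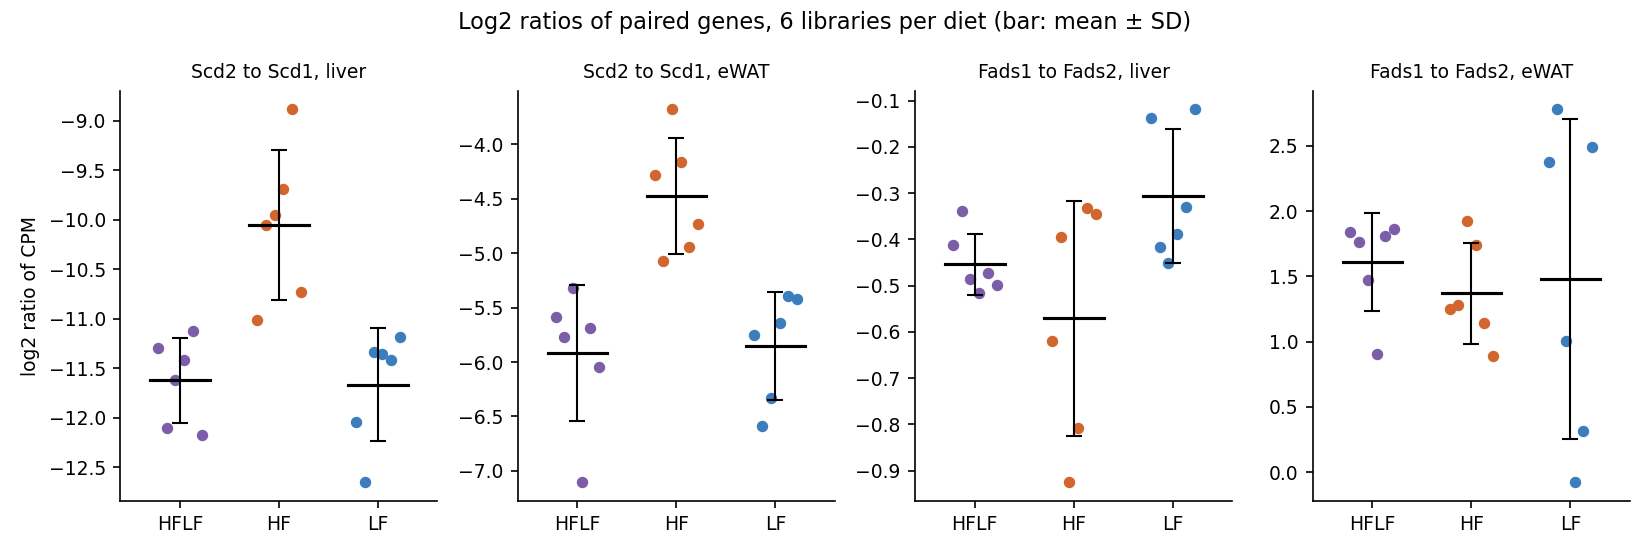
Log2 ratio of CPM of Scd2 to Scd1 and of Fads1 to Fads2 in each tissue, 1 point per library, HFLF at the left, HF in the middle and LF at the right, with bars for mean ± SD. HF libraries lie above all others for Scd2 to Scd1 in both tissues, and the LF libraries of eWAT split into 3 high and 3 low for Fads1 to Fads2.

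Other genes of the pathway are described from lists written with earlier results of these data known. Of the other elongases and desaturases, 2 of 4 measured fell in HF against LF eWAT and 1 rose. Over all genes 40.8% passed there (20.6% higher, 20.2% lower), and 34.8% passed in HF against LF livers. Elovl6, which extends palmitate, fell in HF against LF eWAT (-2.11, SE 0.37, adjusted p = 0.000383) and rose in HFLF against HF eWAT (1.93, SE 0.37, adjusted p = 0.00241). Degs1, a ceramide desaturase, rose in HF against LF eWAT (0.77, SE 0.11, adjusted p = 0.000113). Elovl6 fell in HF against LF livers too (-0.68, SE 0.24, adjusted p = 0.0383), with -0.45 (adjusted p = 0.534) without LF libraries 1 to 4. Of 6 partner enzymes of the elongation cycle, 0 passed in HF against LF livers, and in HF against LF eWAT Hacd4 rose (1.60, SE 0.25, adjusted p = 0.000173) and Hacd2 fell (-0.46, SE 0.14, adjusted p = 0.0126), Hacd2 with an adjusted p of 0.0862 without the 6 libraries apart. Among the electron donors, cytochrome b5 (Cyb5a) rose in HF against LF livers (0.51, SE 0.11, adjusted p = 0.00191, and 0.33 with adjusted p = 0.207 without LF libraries 1 to 4) and fell in HF against LF eWAT (-0.62, SE 0.20, adjusted p = 0.0194), a tissue difference of 1.18 (SE 0.23, adjusted p = 0.000166). In HF against LF eWAT 3 of 6 donors rose and 1 fell, where 40.8% of all genes passed.

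Genes of malonyl-CoA turnover and fatty acid synthesis mostly fell in HF eWAT. The list holds genes that make malonyl-CoA or its precursor (Acaca, Acacb, Acly), the mitochondrial citrate carrier Slc25a1, malic enzyme Me1, Fasn, which consumes malonyl-CoA, and Mlycd, which removes it. Of these 7, 6 fell and 0 rose in HF against LF eWAT, with a median log2 fold change of -1.65, and Me1 did not pass (-0.66, SE 0.30, adjusted p = 0.0926). Over all genes 20.2% fell in this comparison. Without the 6 libraries apart 7 of the list fell. Acaca, an acetyl-CoA carboxylase, gave -2.65 (SE 0.35, adjusted p = 5.49e-05), Acacb -2.09 (SE 0.32), Acly, which makes cytosolic acetyl-CoA, -2.04 (SE 0.44) and Fasn -1.65 (SE 0.36). In HFLF against HF eWAT 4 of 7 rose, where 10.7% of all genes rose, and Acaca was among them (2.12, SE 0.34, adjusted p = 0.00101). In HFLF against LF eWAT 0 of 7 passed, where 0.563% of all genes did. Liver HF against LF lowered 1 of 7, where 18.5% of all genes fell. It was Acaca (-0.75, SE 0.19, adjusted p = 0.0056), which had an adjusted p of 0.246 without LF libraries 1 to 4.

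Of 12 regulators of these genes, 1 rose and 7 fell in HF against LF eWAT, where 40.8% of all genes passed, with Mlxipl (ChREBP, a carbohydrate-responsive factor) at -1.29 (SE 0.18, adjusted p = 7.06e-05) and Srebf1, a driver of fatty acid synthesis genes, at -0.70 (SE 0.16, adjusted p = 0.00203). Among 12 in HF against LF livers, 3 rose and 2 fell, where 34.8% of all genes passed, with Srebf1 at 1.24 (SE 0.26, adjusted p = 0.00228) and Pparg at 1.57 (SE 0.34). The HF against LF change differed between tissues for 7 of the 12, 6 of them with a positive difference, where 45.6% of all genes passed. For Srebf1 the difference was 1.99 (SE 0.32, adjusted p = 1.55e-05). Without liver LF libraries 1 to 4, Hnf4a alone of the 12 passed in HF against LF livers (lower), and Srebf1 gave 0.60 (adjusted p = 0.216).

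Genes that act on the products were read last. Of 8 peroxisomal genes, whose products shorten very long chains, 7 rose in HF against LF livers, where 16.3% of all genes rose. Hsd17b4 gave 0.60 (SE 0.094, adjusted p = 0.000282), and 0 of the 8 rose without LF libraries 1 to 4. Hsd17b4 fell in HFLF against HF livers (-0.49, SE 0.094, adjusted p = 0.00905). Eicosanoid enzymes act on arachidonic acid and its kin. Of 15, 5 rose and 4 fell in HF against LF eWAT, where 40.8% of all genes passed. Those that rose included Hpgds (3.93, SE 0.66, adjusted p = 0.000266), Tbxas1 (2.49, SE 0.40, adjusted p = 0.000181) and Alox5ap (1.57, SE 0.28, adjusted p = 0.000412), enzymes or partners that myeloid cells are known to express, and Ptges fell (-1.12, SE 0.26, adjusted p = 0.00261). The macrophage marker sums given above were higher in every HF library than in any LF library, and their part was not tested. Of genes that activate and esterify long fatty acids, 4 of 12 rose and 1 fell in HF against LF eWAT, a share near the 40.8% of all genes, with Acsl5 at 0.56 (SE 0.084, adjusted p = 0.000109). In HF against LF livers 2 of 10 rose and 3 fell, where 34.8% of all genes passed, and 0 passed without LF libraries 1 to 4.

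For each member that passed in a tissue, the 2 genes most like it were found by the Pearson correlation of log2(CPM + 0.5) over its 18 libraries. In liver these were Pitx3 (0.963) and Pim1 (0.917) for Elovl3, Herc1 (0.860) and Rabggtb (0.859) for Elovl2, Ccnq (0.923) and Sdr39u1 (0.871) for Fads2, Zfp810 (0.875) and Gpr146 (0.866) for Fads3, and Klhl42 and Plcg1 (0.956 each) for Fads6. Pitx3 overlaps Elovl3 by 10 exon bases on the opposite strand, and without the strand of counting their reads cannot be told apart there. In eWAT they were Arhgdia (0.977) and Pitpna (0.975) for Elovl1, Ddx39b (0.931) and Cnpy2 (0.925) for Fads1, Adam11 (0.954) and Slc6a9 (0.944) for Fads2, Mpdz (0.958) and Anxa6 (0.955) for Fads3, and Crocc (0.983) and Espn (0.980) for Elovl7. The 18 libraries share diets, depth and, in eWAT, the 6 that stood apart.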

How the data were processed

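Whole-tissue RNA was sequenced from liver and eWAT of mice on 3 diets, and the authors deposited 1 table of raw whole-number counts per gene for each tissue. Alignment used STAR on GRCm38.p6 per the submitters' processing notes, while the sources used here do not give the counting tool, annotation release or use of strand. Every gene in the deposited count tables reached 0.5 CPM in at least 6 of the 18 libraries, so genes below that could not be read. The RPKM tables that were also deposited were not used, because their values did not follow the counts of the gene named beside them.

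CPM was computed on each library's table total, and levels per length used the union of exons in GENCODE M21. Diets were compared with edgeR 4.0.16 (quasi-likelihood test, TMM, 3 diets in 1 fit per tissue, R 4.3.3), and tissues by the interaction in 1 fit of 36 libraries. Adjusted p-values are Benjamini-Hochberg over all genes of the fit. Ratios within libraries were tested by exact permutation with scipy 1.17.1 (Python 3.11.15). The scripts were tested on simulated data. Alternatives were DESeq2 1.42.0, voom in limma 3.58.1 with quality weights, other scaling factors, a low-count filter, fits of 2 diets, a replicate block, and leaving out libraries. Within a tissue the replicate block was the replicate number across diets. In the voom fit of 36 libraries it was the same-numbered liver and eWAT library of a diet. Leaving out the libraries apart for the pathway and marker lists was added after seeing the data.

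The members and lists were chosen with earlier results of these data known. The named genes are all members, up to 4 genes of each pathway list with the smallest unadjusted p in the comparison described, and the 2 genes most similar to each member that passed. Each group has 6 labelled libraries, while the series text gives 4 to 6 mice. A result on 1 gene is not reported here.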

Additional observations from a re-analysis of the deposited data

Results flagged for a closer look

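In 69 groups of 6 libraries (each member or ratio in each tissue and diet), a library was picked out where its gap to the nearest other exceeded 0.625 of the group's range, and 7 groups had one. Chance picks about 1 in 20 such groups where values are independent and normal, which was not checked for these levels. Groups of the same libraries are not independent of each other. All 7 were in eWAT and high. HFLF library 4 stood out for Fads1 (134 CPM, next 85.8), Fads2 (71.3 CPM, next 24.5), Elovl7 (3.56 CPM, next 0.453) and Elovl3 (1.24 CPM, next 0.407). HF library 1 stood out for Elovl2 (8.98 CPM, next 0.894) and HF library 6 for Elovl3 (3.09 CPM, next 0.999). LF library 4 stood out for Elovl7 (16.1 CPM, next 5.86).

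The diet change differed between tissues, as the liver change minus the eWAT change in edgeR's interaction test, for Fads1 (1.24 in HFLF against LF and 1.62 in HF against LF), Fads2 (1.91 and 2.33), Elovl1 (-0.71 in HF against LF and 0.60 in HFLF against HF) and Fads3 (1.43 in HFLF against HF).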

How the results depend on the processing

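Depth limits Elovl2, Elovl3 and Elovl7 in eWAT and Scd2 in liver most, and the low-count filter kept every gene. For the members that passed, 572 alternative values kept the call, 78 lost it and 1 reversed. For those that did not pass, 1839 stayed, 31 gained a call and 68 reversed. Both tallies include the low-count filter, which repeats the main fit, and the fits that leave out single libraries and overlap each other. The cause of a lost, gained or reversed call was not tested, also where an alternative left out libraries. Such a fit drops every trait of those libraries at once and has fewer libraries left.

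Counts of members called moved as follows, and counts over all genes under the same settings are given further below. In liver, HFLF against LF gave 0 and HF against LF 0 without LF libraries 1 to 4 (2 to 3 and 2 to 3 leaving out single libraries), and HFLF against HF gave 1 with upper-quartile factors and 0 with the replicate block (0 to 2). In eWAT, HFLF against LF gave 2 with DESeq2 and 0 without the 6 libraries apart (0 to 1), HF against LF gave 3 with voom and 1 without the 6 (3 to 6), and HFLF against HF gave 2 with upper-quartile factors, DESeq2, voom and the replicate block, and 0 without the 6 (1 to 2). The tissue difference in HFLF against LF gave 0 without the liver LF libraries and 1 without the 6 eWAT libraries (1 to 3). It gave 1 with voom and a block of same-numbered liver and eWAT libraries of a diet. HF against LF gave 3 to 4 and HFLF against HF 2 to 3 leaving out single libraries.

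The log2 ratio of Scd2 to Scd1 in liver was -0.32 in HFLF against LF (-0.15 to 0.15 leaving out single libraries) and 1.25 in HF against LF without LF libraries 1 to 4. In eWAT without the 6 it was 0.33 in HFLF against LF (-0.21 to 0.17) and 1.40 in HF against LF. Paired by replicate number as a block, the ratio gave -1.57 in liver and -1.44 in eWAT for HFLF against HF, and 1.61 and 1.38 for HF against LF, with an adjusted exact permutation p of 0.0938, the smallest that 6 pairs allow. For Fads1 to Fads2, eWAT HFLF against LF gave -0.83 without the 6 (-0.18 to 0.39) and eWAT HF against LF -1.15 without the 6 (-0.42 to 0.15). Liver HFLF against LF gave -0.18 to -0.11.

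Reversals without liver LF libraries 1 to 4 were Elovl1 in HFLF against LF (0.15) and HF against LF (0.047), Elovl3 in HFLF against LF (0.34) and, in the tissue difference of HFLF against LF, Elovl1 (0.11) and Fads6 (-0.093). Without the 6 eWAT libraries they were, in HFLF against LF, Elovl7 (0.28); in HF against LF, Elovl5 (0.042), Elovl7 (0.41) and Elovl3 (1.98); and in HFLF against HF, Elovl5 (-0.047), Fads6 (0.013) and Elovl7 (-0.13). Tissue differences that reversed there were Fads6 (-0.31) and Elovl3 (-0.21) in HFLF against LF, Elovl2 (-0.24) in HF against LF, and Fads6 (-0.023) and Scd2 (-0.11) in HFLF against HF. Upper-quartile factors gave -0.0076 for Fads2 in HFLF against HF livers. Voom gave 0.012 for Elovl3 in HF against LF eWAT, and -0.029 for Elovl5 and 0.27 for Elovl2 in HFLF against HF eWAT. Elovl5 there gave -0.0048 with DESeq2-type factors and -0.0041 with DESeq2, and Scd2 -0.057 with the replicate block.

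Leaving out single libraries turned the sign in these ranges. In HFLF against HF livers Elovl5 ran from -0.049 to 0.35, Fads6 from -0.058 to 0.0010 and Fads2 from -0.094 to 0.12. In eWAT, Elovl1 in HFLF against LF ran from -0.0085 to 0.091, Elovl3 in HF against LF from -1.35 to 0.24, and in HFLF against HF Elovl5 from -0.037 to 0.058, Elovl2 from -0.96 to 1.66, Elovl7 from -0.30 to 1.12 and Scd2 from -0.14 to 0.19. Tissue differences turned for Fads6 in HFLF against LF (-0.062 to 0.16), for Fads6 (-0.34 to 0.095), Scd2 (-0.039 to 0.28) and Elovl3 (-1.64 to 0.0499) in HF against LF, and for Elovl5 (-0.071 to 0.34), Fads6 (-0.022 to 0.41), Elovl2 (-1.25 to 1.37) and Scd2 (-0.080 to 0.29) in HFLF against HF.

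Over all genes, HFLF against LF eWAT called 94, and 704 with DESeq2, 679 with voom, 50 in the 2-diet fit, 15 with the replicate block and 6 without the 6. HF against LF eWAT called 6817 of 16690 genes, 6211 with voom and 5203 without the 6. HFLF against HF eWAT called 4242, and 1390 without the 6. With DESeq2 that comparison called 5110, with voom 4984 and with the replicate block 4002. In liver without LF libraries 1 to 4, HFLF against LF called 26 and not 3176, and HF against LF 297 and not 4891. HFLF against HF livers called 735, and 736 with upper-quartile factors, 1312 with DESeq2 and 1758 with voom. This liver comparison called 1181 in the 2-diet fit, 444 with the replicate block and 1355 without LF libraries 1 to 4. It called 215 to 434 without HF library 1, 2, 3 or 4 or HFLF library 3, 4, 5 or 6. The tissue difference called 1130 for HFLF against LF, and fewer with voom and a block of same-numbered liver and eWAT libraries. It called 677 without liver LF library 2 and 1771 without liver LF library 5. Without liver LF libraries 1 to 4 it called 1, and without the 6 eWAT libraries 311. For HF against LF it called 6019, and 3025 without the liver LF libraries. With upper-quartile factors, 1866 of 3024 calls in HFLF against LF livers were higher, against 1432 of 3176 with TMM. In HF against LF livers these were 2952 of 4821, against 2295 of 4891, in HFLF against HF eWAT 2352 of 4385, against 1784 of 4242, and in the tissue difference of HFLF against HF 961 of 2433, against 1212 of 2372.

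Replicate numbers showed no clear pairing of libraries of different diets. Same-numbered libraries of different diets had a correlation of deviations between -0.61 and 0.57, and 0 to 2 of 6 matched their own number best, which is a hint from the data and not from the design. Between tissues 5 of 6 did so in LF (correlations of 0.043 to 0.155 for the same number), 2 of 6 in HF and 1 of 6 in HFLF. The labels do not say whether same-numbered liver and eWAT libraries came from the same mouse. With the replicate block, edgeR's adjusted p was 0.065 for Elovl2 and 0.0659 for Fads3 in HFLF against HF livers, 0.0646 for Fads2 in HF against LF livers and 0.208 for Elovl7 in HF against LF eWAT. It was 0.0198 for Scd2 in HFLF against LF livers and 0.0213 for Fads1 in HFLF against HF eWAT. With voom and a block of same-numbered liver and eWAT libraries of a diet, the tissue difference of Fads2 in HFLF against LF had an adjusted p of 0.111.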

Other observations

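Further marker lists had these values. Over all genes 20.6% rose and 20.2% fell in HF against LF eWAT, and 10.7% rose in HFLF against HF eWAT. In eWAT, endothelial markers summed to 1088 to 1431 CPM in HFLF, 707 to 1723 CPM in HF and 951 to 1318 CPM in LF libraries, and 1 of 6 rose in HF against LF. Mesothelial markers summed to 91.2 to 272 CPM in HFLF, 15.3 to 189.5 CPM in HF and 86.4 to 387 CPM in LF eWAT, and 1 of 6 fell in HF against LF, and 0 without the 6 libraries apart. Of 5 brown and beige fat markers measured in eWAT, 1 rose and 2 fell in HF against LF, and 0 rose and 1 fell without the 6. Ucp1 was not in the table. Of 14 clock genes, 8 fell and 0 rose in HF against LF eWAT, and 7 rose in HFLF against HF eWAT. Without the 6 libraries apart, 3 fell (Nr1d1, Per1 and Per2) in HF against LF and 3 rose (Cry2, Nr1d1 and Nr1d2) in HFLF against HF.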
